A study of Mus musculus with 16 samples.

Results

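The mitochondrially encoded genes are the 37 genes of the mouse mitochondrial chromosome whose symbol starts with mt-. They were taken from GENCODE release M21 by that symbol, and their rows were found by Ensembl identifier among the 33399 genes of the count table. They comprise 13 protein genes, 2 ribosomal RNA (rRNA) genes and 22 transfer RNA (tRNA) genes. RNA sequencing was done on ventricles, the pumping chambers of the heart, of C57BL/6 mice of WT genotype. The 8 libraries of chronic kidney disease (CKD) came from mice given chow with 0.25% adenine, alternating with standard chow, for 6 weeks from an age of 8 weeks. This is the high-dose regimen of the labels, with a target blood urea nitrogen of 40 to 70 mg/dL. The 8 control libraries came from mice on standard chow for 6 weeks. Each arm held 4 male and 4 female libraries, so that male control, female control, male CKD and female CKD libraries form 4 groups. The model is a dietary one, in which adenine itself reached the CKD mice and no controls. Whether each library is a separate mouse is not stated in the labels, so p-values measure the spread between these samples.

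Mitochondrial DNA is transcribed from both strands as long precursor RNAs that carry many genes each. The tRNAs lie between the protein and rRNA genes, and cutting them out at both ends releases the messenger RNAs and rRNAs. The protein genes encode core subunits of the respiratory chain and of ATP synthase, which supply most of the ATP that a beating cardiomyocyte uses. All other proteins of the mitochondrion, including those that transcribe, cut, modify and translate these RNAs, come from nuclear genes.

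The sequences shown are those of tRNA genes that are compared below by the number in the sample title. Not all of these genes passed the test there, and for some the share of members called was near that of all genes. The sequences are GENCODE M21 transcripts (GRCm38, chromosome M), written 5′ to 3′ in the sense of the gene. The anticodon is in capitals where the expected triplet was found between paired stem bases. The first 4 form a cluster on the minus strand between mt-Nd2 and mt-Co1, at chrM:5018-5086, chrM:5089-5159, chrM:5192-5257 and chrM:5260-5326. They carry alanine, asparagine, cysteine and tyrosine.
mt-Ta: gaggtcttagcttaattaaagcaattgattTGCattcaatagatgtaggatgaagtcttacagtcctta
mt-Tn: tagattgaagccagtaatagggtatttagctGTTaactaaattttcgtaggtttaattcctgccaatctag
mt-Tc: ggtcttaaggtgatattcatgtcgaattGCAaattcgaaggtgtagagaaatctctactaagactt
mt-Ty: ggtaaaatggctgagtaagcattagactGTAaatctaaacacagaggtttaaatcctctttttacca

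A serine tRNA, mt-Ts2, lies on the plus strand at chrM:11613-11671, between the histidine tRNA mt-Th and the leucine tRNA mt-Tl2, and no capitals are given because the search placed no anticodon in it.
mt-Ts2: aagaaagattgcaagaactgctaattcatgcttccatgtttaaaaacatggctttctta

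The next 3 follow mt-Nd1 directly and carry isoleucine (chrM:3706-3774, plus strand), glutamine (chrM:3772-3842, minus strand) and methionine (chrM:3845-3913, plus strand). The last carries glutamate and lies on the minus strand at chrM:14071-14139, next to mt-Nd6.
mt-Ti: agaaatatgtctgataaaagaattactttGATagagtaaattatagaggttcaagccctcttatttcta
mt-Tq: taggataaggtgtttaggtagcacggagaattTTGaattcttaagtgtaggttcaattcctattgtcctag
mt-Tm: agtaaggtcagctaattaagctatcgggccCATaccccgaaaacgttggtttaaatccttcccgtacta
mt-Te: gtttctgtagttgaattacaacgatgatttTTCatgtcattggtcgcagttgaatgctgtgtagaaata

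The genes are packed without introns, and some overlap. mt-Atp8 (chrM:7766-7969, plus strand, 204 bases) shares its last 43 bases, 21.1% of its length, with mt-Atp6. These bases are in capitals. A read of 50 bases that covers any of them overlaps both genes, and the sources used here do not state how such reads were counted.
mt-Atp8: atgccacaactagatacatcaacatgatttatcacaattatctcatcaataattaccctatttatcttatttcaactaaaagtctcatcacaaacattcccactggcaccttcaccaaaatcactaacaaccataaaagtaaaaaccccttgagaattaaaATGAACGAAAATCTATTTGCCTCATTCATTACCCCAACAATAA

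mt-Nd4l and mt-Nd4 share 7 bases on the plus strand, and mt-Nd5 and mt-Nd6 share 14 bases on opposite strands. The sources used here do not state the strand setting of the counting, so reads of a gene on the minus strand and of precursor RNA of the plus strand over the same bases cannot be told apart.

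Libraries held 10203707 to 13626039 counts. Each sample title holds a C followed by a number, called the title code number here, which was 6 in 10 libraries, 2 in 3, 3 in 2 and 5 in 1. What it stands for is not stated, and it goes with the number that ends each library name: libraries 14 to 16 carry title code number 2, and libraries 12 and 13 carry 3. The code and the library number cannot be told apart. Cardiomyocyte markers (10 genes) summed to 35329 to 49124 CPM (counts scaled to a common library total) in every library. Skeletal muscle markers summed to 1.52 to 5.61 CPM, with 5 of 6 genes under 1 CPM on average. Fibroblast markers (8 genes) ranged from 418 CPM in male CKD 4 to 2314 CPM in male control 3, the libraries with title code number 3. In bulk tissue, fewer cells of a type and less RNA per cell cannot be told apart.

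The mitochondrial genes took about the same share of the counts in both arms. The share was 9.28% ± 0.594 (SD, n = 8) in control and 9.29% ± 0.605 in CKD, with the lowest library at 8.45% (male CKD 1) and the highest at 10.3% (female CKD 2). Within males the share was 8.95% ± 0.430 in control and 8.91% ± 0.423 in CKD (n = 4 each), and within females it was 9.61% ± 0.591 and 9.67% ± 0.543. Shares of CKD and control libraries overlapped in both sexes. As a share over the genes chosen, these values are a description without a test. The Wilson 95% interval of a library's share was at most 0.0185 percentage points to each side, which covers counting error only.

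**Figure D1:**
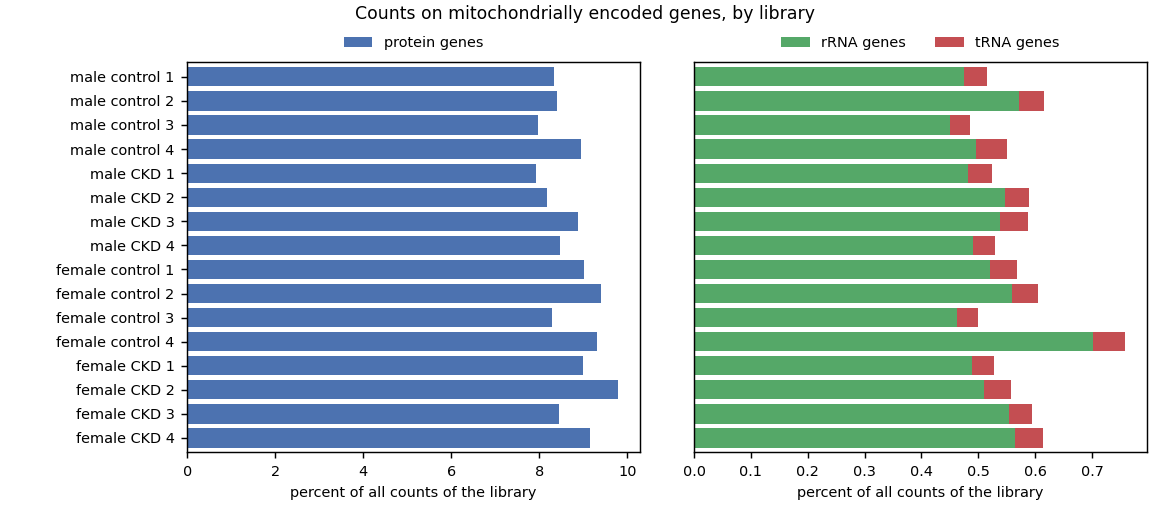
Percent of all counts of each library on protein genes (left) and on rRNA and tRNA genes (right, stacked, on a wider scale), 1 bar per library. Protein genes took 7.92% to 9.79% of the counts, and CKD and control bars overlap in both panels.

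Protein genes made up nearly all of the mitochondrial counts, 93.8% ± 0.654 in control and 93.9% ± 0.469 in CKD. The rRNA genes, which encode the RNAs of the mitochondrial ribosome, took 5.69% ± 0.629 and 5.64% ± 0.452. The tRNA genes took 0.484% ± 0.0580 and 0.466% ± 0.0379. By complex, the 7 genes of NADH dehydrogenase (complex I) held 40.2% ± 2.24 of mitochondrial counts in control and 40.6% ± 2.11 in CKD. mt-Cytb, cytochrome b of complex III, held 10.2% ± 0.479 and 10.1% ± 0.518. The 3 genes of cytochrome c oxidase (complex IV) held 35.8% ± 1.61 and 35.6% ± 1.39, and the 2 genes of ATP synthase (complex V) 7.64% ± 0.281 and 7.57% ± 0.227. Each of these differences between arms was smaller than the SD within an arm. Genes on the minus strand, mt-Nd6 and 8 tRNAs, took 3.02% ± 0.142 over the 16 libraries.

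Levels are compared between genes as CPM per kilobase of gene length. mt-Co1, the catalytic subunit of cytochrome c oxidase, was highest at 12145 ± 695 (SD, n = 16) and held 20.2% ± 0.565 of the mitochondrial counts. It was followed by mt-Co3 at 10086 ± 669 and mt-Co2 at 9464 ± 632, subunits of the same complex. The proton channel subunit of ATP synthase, mt-Atp6, stood at 9346 ± 502, and mt-Cytb at 8204 ± 552. The complex I subunits spread more widely. mt-Nd4 stood at 7564 ± 619, mt-Nd1 at 7427 ± 436, mt-Nd2 at 5775 ± 785 and mt-Nd5 at 4972 ± 819 CPM per kilobase. mt-Nd6, the complex I subunit on the minus strand, stood at 4785 ± 481, beside mt-Nd4l at 4764 ± 431. The lowest protein genes were mt-Atp8, a small ATP synthase subunit, at 3368 ± 332 and mt-Nd3 at 3105 ± 221. mt-Atp8, mt-Nd4l and mt-Nd3 are also the shortest protein genes, at 204, 297 and 348 bases. The part of gene length in their levels per kilobase was not tested. The rRNAs were lower per length than the protein genes, with mt-Rnr2 (large subunit) at 2296 ± 297 and mt-Rnr1 (small subunit) at 1702 ± 188. The sources used here do not state how rRNA and poly(A) were handled in library making.

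The ranges over libraries of all 14 neighbours in this order overlapped. Within a library the order was firmer: the higher of the neighbours was higher in 16 of 16 libraries for mt-Co1 over mt-Co3, mt-Co3 over mt-Co2, mt-Atp6 over mt-Cytb, mt-Nd1 over mt-Nd2, mt-Nd2 over mt-Nd5, mt-Nd4l over mt-Atp8, mt-Nd3 over mt-Rnr2 and mt-Rnr2 over mt-Rnr1. mt-Nd6 was above mt-Nd4l in only 8 of 16, mt-Co2 above mt-Atp6 and mt-Nd4 above mt-Nd1 in 11, mt-Nd5 above mt-Nd6 in 12, mt-Atp8 above mt-Nd3 in 14 and mt-Cytb above mt-Nd4 in 15. These pairs did not differ in order beyond their spread in every library.

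**Figure D2:**
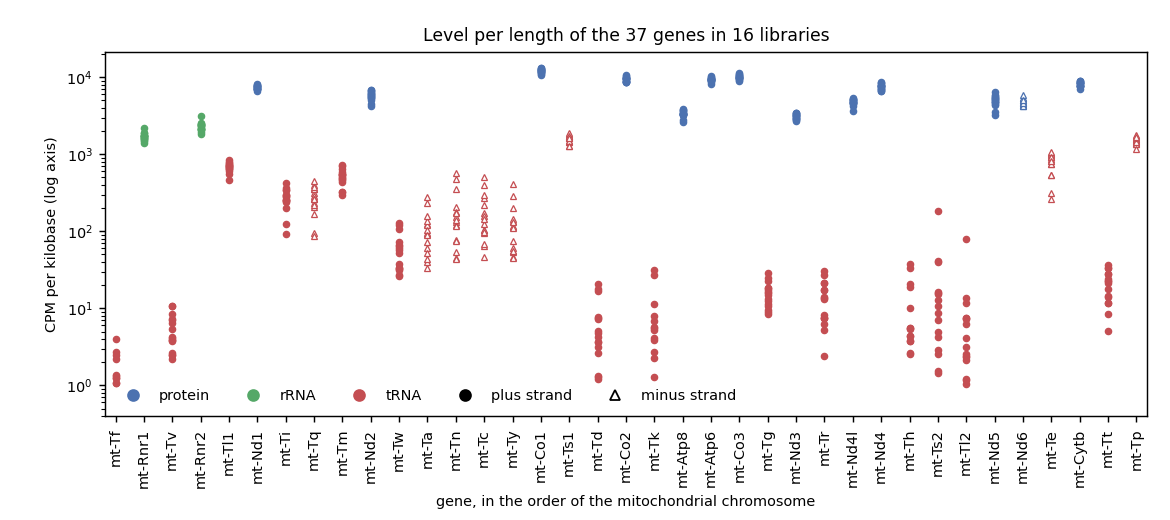
CPM per kilobase (log axis) of the 37 genes in the order of the mitochondrial chromosome, 1 point per library with values of 0 left out, filled circles for the plus strand and open triangles for the minus strand. Points of protein and rRNA genes lie close together, while those of most tRNA genes spread over a wide range.

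Among long genes, mt-Atp6 varied least over the 16 libraries, with a coefficient of variation (CV) of 5.37% in CPM, and mt-Nd5 most, at 16.5%. mt-Nd5 ranged from 5833 CPM in male control 3 to 11644 CPM in female CKD 2, and mt-Nd2 (CV 13.6%) from 4329 CPM in male control 3 to 7188 CPM in female control 2. Within the 10 libraries with title code number 6 the CV was 10.2% for mt-Nd5 and 9.87% for mt-Nd2.

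The tRNA genes spanned a far wider range than the long genes, from 1597 CPM per kilobase for the serine tRNA mt-Ts1 to 1.17 for the phenylalanine tRNA mt-Tf. mt-Ts1 and the proline tRNA mt-Tp (1507) came close to mt-Rnr1. They were followed by mt-Te (782), the leucine tRNA mt-Tl1 (684) and mt-Tm (510). mt-Tq stood at 272, mt-Ti at 269, mt-Tn at 182, mt-Tc at 180, mt-Ty at 128 and mt-Ta at 108. The tryptophan tRNA mt-Tw stood at 59.5. The other tRNAs that passed the filter on low counts were mt-Ts2 (23.2), the threonine tRNA mt-Tt (20.8), the glycine tRNA mt-Tg (15.8), the arginine tRNA mt-Tr (13.8) and mt-Th (9.92). The 5 tRNA genes that did not pass it, mt-Tl2, mt-Tk (lysine), mt-Td (aspartate), mt-Tv (valine) and mt-Tf, had means of 0.0797 to 0.677 CPM and at most 60 counts in a library. Thus 32 of 37 genes were tested: 13 protein, 2 rRNA and 17 tRNA genes. At 59 to 75 bases a tRNA gene is little longer than a read of 50 bases, so a count on it does not show that a mature tRNA was sequenced.

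Several mitochondrial genes share nearly all of their sequence with copies in the nuclear genome, and the count table also lists counts for those copies. Whether these are the same reads as those of the mitochondrial genes is not known. In 9 nuclear genes, all annotated as unprocessed pseudogenes, at least 50% of the 25-base words also occur in mitochondrial transcripts. Of these, 7 lie side by side on chromosome 1, from Gm28439 (start 24611535) to Gm29216 (end 24616197, GRCm38), and Gm13340 and Gm13341 lie on chromosome 2. Gm28437, the copy of mt-Co3 at chr1:24613189-24613971, had 1.06 ± 0.00606 counts for each count of mt-Co3 (mean ± SD over 16 libraries). Gm10925 had 1.26 ± 0.0103 for each count of mt-Atp6, and Gm28661 1.06 ± 0.00608 for each of mt-Co2. Gm10222 had 1.03 ± 0.00959 per count of mt-Nd4l, Gm28438 1.09 ± 0.0144 per count of mt-Nd3 and Gm28439 0.564 ± 0.0346 per count of mt-Nd4. Gm29216 and Gm13340 had 0.302 ± 0.0143 and 0.150 ± 0.00238 per count of mt-Co1, and Gm13341 0.179 ± 0.00765 per count of mt-Co2.

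**Figure D3:**
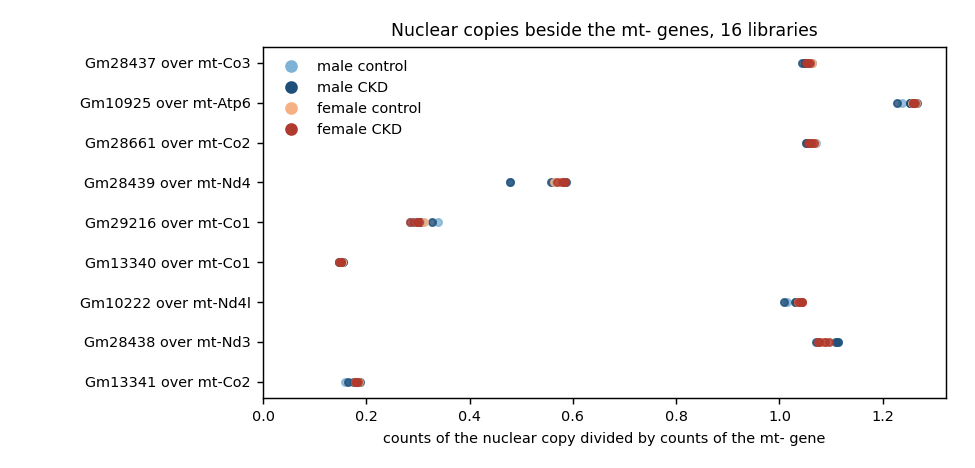
Counts of each nuclear copy divided by counts of the mitochondrial gene it shares sequence with, 1 point per library coloured by group. Points of the 4 groups lie on top of each other for most pairs, with the widest spread, 0.478 to 0.586, for Gm28439 over mt-Nd4.

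The copies together held counts equal to 44.6% of the mitochondrial counts. With them added, the mitochondrial share was 13.4% ± 0.821 in control and 13.4% ± 0.846 in CKD. If reads that fit both places were counted at both, this share holds the same reads repeatedly. Of the 25-base words of mt-Co2, 100% occurred in a copy, and the share was 99.9% for mt-Co3, 99.5% for mt-Atp6, 98.9% for mt-Nd4l, 98.2% for mt-Nd3, 69.0% for mt-Co1, 62.9% for mt-Nd4 and 10.6% for mt-Atp8. None of the words of the other members occurred in these 9 copies. The search covered annotated genes of the count table only, so copies elsewhere in the nuclear genome, of any member, were not looked for. The sources used here do not state how reads that fit several places were counted, so the levels of these 8 genes, and their place in the order of genes, are uncertain. None of the 9 copies passed the test for CKD against control, with log2 fold changes from 0.02 (Gm28438) to 0.12 (Gm10222).

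The first comparison asks whether CKD went with a change in mitochondrially encoded RNA. None of the 32 tested genes passed the test in CKD against control (quasi-likelihood F test of edgeR, adjusted for sex, with a Benjamini-Hochberg adjusted p under 0.05), where 0.0854% of 16400 genes did. DESeq2 called 0 of 32 (2.43% of all genes) and limma-voom 0 of 32 (1.21%). At an unadjusted p under 0.05, edgeR called 0 of 32, against 15.4% of all genes. The lowest adjusted p was 0.365, for mt-Tp. Levels in the comparisons by CKD and by sex are CPM scaled by TMM (edgeR's normalisation factors), unlike the CPM above, and fold changes are log2 values of CKD over control.

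All 15 long genes had small positive fold changes, with a median of 0.06, where 50.2% of all tested genes were positive and their median was 0.0017. mt-Nd5 had the largest. It ranged from 5509 to 10396 CPM in control (median 8879) and from 7360 to 12589 in CKD (median 9579), a fold change of 0.15 (SE 0.11, adjusted p = 0.526, edgeR). The groups overlapped, although 7 of 8 CKD libraries lay above the control mean of their sex. In males that mean was lowered by male control 3, at 5509 CPM beside 8806 to 9066 CPM in the other male controls. How many of all genes reached 7 of 8 was not counted. mt-Nd4l went from a median of 1386 (range 1019 to 1514) to 1458 (1352 to 1729), a fold change of 0.12. Here too 7 of 8 CKD libraries lay above the control mean of their sex. Male control 3 was again lowest, at 1019 CPM beside 1328 to 1415 CPM in the other male controls. mt-Nd6 went from a median of 2393 (2072 to 2762) to 2569 (2162 to 3283), a fold change of 0.11. Neither of these complex I subunits passed the test. The other complex I genes were at 0.08 (mt-Nd1), 0.04 (mt-Nd4), 0.03 (mt-Nd2) and 0.02 (mt-Nd3).

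mt-Cytb had a fold change of 0.06. In complex IV, mt-Co1 ranged from 16759 to 20592 CPM in control and from 16717 to 22011 in CKD, a fold change of 0.07 (SE 0.08). mt-Co2 was at 0.06 and mt-Co3 at 0.04. The ATP synthase genes mt-Atp8 and mt-Atp6 were at 0.08 and 0.05, and the rRNAs mt-Rnr1 and mt-Rnr2 at 0.08 and 0.03. Over the 15 genes the 95% intervals reached from -0.17 to 0.38. The common sign depended on scaling: with library size set to the mitochondrial total, 7 of 15 were positive (the median of all genes moved to -0.06), and after removal of each library's GC trend 9 of 15 were. Leaving out male CKD 4 and female control 2 together left 10 of 15 positive.

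**Figure D4:**
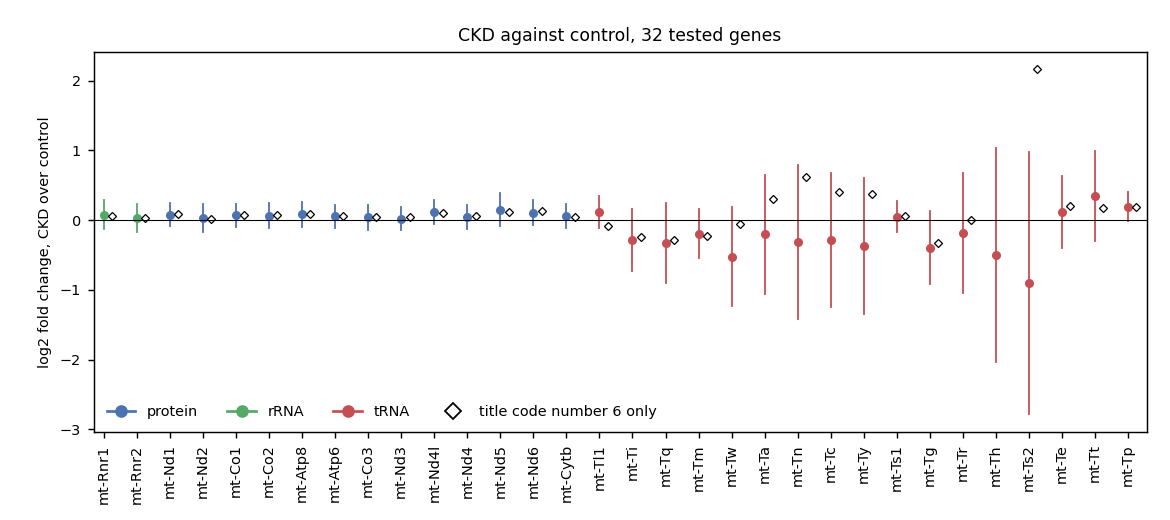
log2 fold change of CKD over control for the 32 tested genes, with 95% intervals from the fit to 16 libraries (circles and lines) and, as open diamonds, the estimate from the 10 libraries with title code number 6 only. All intervals include 0, and 6 of the tRNA estimates change sign between the fits.

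Of the 17 tested tRNA genes, 12 had negative fold changes and 5 positive ones, with a median of -0.28. mt-Tp was the tRNA with the lowest p. It ranged from 75.7 to 108 CPM in control (median 94.8) and from 89.3 to 133 in CKD (median 105), a fold change of 0.19 (SE 0.10, adjusted p = 0.365, edgeR), and the groups overlapped. The other positive ones were mt-Tt at 0.35, mt-Te at 0.12, mt-Tl1 at 0.12 and mt-Ts1 at 0.05. On the negative side mt-Tw was at -0.52, mt-Tg at -0.39, mt-Tq at -0.32, mt-Ti at -0.29, mt-Tm at -0.19 and mt-Tr at -0.18. The alanine to tyrosine cluster stood at -0.20 (mt-Ta), -0.31 (mt-Tn), -0.28 (mt-Tc) and -0.37 (mt-Ty). mt-Th was at -0.50 and mt-Ts2 at -0.90, with standard errors of 0.73 and 0.89.

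The sign of the tRNA values moved with the title code number. With it as a factor, 6 of 17 were negative and the median was 0.16; in that fit the library with code 5 has a level of its own and adds nothing to the CKD estimate. Among the 10 libraries with code 6 (5 per arm), where mt-Td passed the filter on low counts and mt-Th did not, 7 of 17 were negative and the median was 0.18. mt-Tn was at 0.62 there in place of -0.31, and mt-Tc at 0.40 in place of -0.28. mt-Ts2 had 0.0819 to 0.285 CPM in the 5 controls with code 6 and 0.513 to 1.01 in the 5 CKD libraries, ranges that do not overlap, but these are few counts and the adjusted p was 0.0881 in edgeR. No tRNA was called in either fit. Leaving out male control 4 alone also turned the tRNA median positive, to 0.11, and leaving out female control 4 moved it to 0.0080.

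The effect of CKD was also tested within each sex. No member was called in males (0 of 32; 0% of all genes), in females (0 of 32; 0.0549%) or for the difference between the sexes (0 of 32; 0%). At an unadjusted p under 0.05, edgeR called 2 of 32 in males (6.88% of all genes) and 0 of 32 in females (8.34%). In males, mt-Tl1 had 33.1 to 53.8 CPM in control and 51.3 to 61.7 in CKD, a fold change of 0.33 with an unadjusted p of 0.0390 and an adjusted p of 0.722 in edgeR. mt-Ts2 was at -2.67 in males (unadjusted p = 0.0331, adjusted p = 0.717, edgeR) and at 0.99 in females. The male value rests on male control 4 with 11.1 CPM, beside 0.144, 0.285 and 0.914 CPM in the other male controls; with code 6 only it was 1.36. In females mt-Tp was at 0.29, with 75.7, 90.8, 97.5 and 102 CPM in control and 96.0, 106, 117 and 128 CPM in CKD. Its groups overlapped and its unadjusted p was 0.0533 in edgeR.

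Between the sexes, edgeR called 0 of 32 members, against 0.171% of all genes. DESeq2 and limma-voom also called 0 of 32, against 10.2% and 16.6% of the genes they tested. The share of all counts was 9.64% ± 0.527 in females and 8.93% ± 0.395 in males (n = 8 each), with ranges of 8.78% to 10.3% and 8.45% to 9.49%. All 15 long genes were positive for female over male, with a median log2 fold change of 0.08, where the median of all genes was 0.0065. This common sign depended on the scaling. With the GC trend removed 2 of 15 were positive (median -0.09), and with scaling to the mitochondrial total 7 of 15 were (median -0.03). mt-Nd2 ranged from 4090 to 6414 CPM in males and from 5514 to 7693 in females, a fold change of 0.25 (unadjusted p = 0.0185, adjusted p = 0.127, edgeR). mt-Nd5 ranged from 5509 to 9468 CPM in males and from 7942 to 12589 in females, a fold change of 0.26 (unadjusted p = 0.0324, adjusted p = 0.162, edgeR). Both ranges overlapped. Both libraries with title code number 3 are male, and with the code as a factor mt-Nd2 stood at 0.14. With the GC trend removed it stood at 0.06. Scaling to the mitochondrial total moved the median of all genes for sex to -0.11 and mt-Nd2 to 0.13.

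Members were called in a comparison chosen after the data were seen, that of libraries by title code number. Against code 6, with sex and CKD in the model, 3 of 32 members were higher in the libraries with code 2 (edgeR). Of all genes, 0.0915% were higher, and 0.128% were called in both directions together. The members called were mt-Tn, mt-Tc and mt-Ts2, all tRNAs. The libraries with code 2 are male control 4, female control 4 and female CKD 4, so both arms are in it. Levels by title code number are CPM without TMM scaling, and the fold changes are from the TMM-scaled fit.

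mt-Tn had 40.2, 34.0 and 25.1 CPM in these libraries, in that order, and 3.14 to 12.8 CPM (median 6.83) in the 10 libraries with code 6. The ranges did not overlap, and code 2 over code 6 was 2.39 on the log2 scale (SE 0.33, adjusted p = 0.0141, edgeR). mt-Tc had 33.9, 26.4 and 19.4 CPM against 3.05 to 10.4 (median 6.60), a fold change of 2.09 (SE 0.27, adjusted p = 0.0141, edgeR). mt-Ts2 had 10.9, 2.35 and 2.42 CPM (24 to 118 counts) against 0.0856 to 0.934 (1 to 12 counts), a fold change of 3.66 (SE 0.53, adjusted p = 0.0161, edgeR). The other members of the tRNA cluster printed above lay the same way without passing the test. mt-Ty had 27.3, 19.5 and 13.3 CPM against 3.05 to 9.55 (adjusted p = 0.0665, edgeR), and mt-Ta 19.1, 16.1 and 11.02 against 2.33 to 9.46 (adjusted p = 0.0842, edgeR). In each of these 5 genes, every library with code 2 lay above every library with code 6. The same held for mt-Tw, the plus-strand tRNA beside the cluster, at 8.63, 8.04 and 4.93 CPM against 1.76 to 4.31. Its fold change was 1.32 (adjusted p = 0.126, edgeR). How many of all genes separated in this way was not counted. Also on the plus strand, mt-Th was higher, at 2.44 (adjusted p = 0.148, edgeR), and mt-Tg at 0.65 (adjusted p = 0.253, edgeR), both with overlapping ranges. mt-Tm was lower, at -0.38 (adjusted p = 0.298, edgeR). Of the genes named above as higher, the control libraries of code 2 were above the CKD library in all but mt-Ts2. DESeq2 called 6 members, adding mt-Ty, mt-Ta and mt-Tw, but its share of all genes is not given here. For CKD, DESeq2 called 2.43% of all genes and edgeR 0.0854%, so the 0.128% of edgeR is no background for these 6. The calls rest on 3 libraries: without male control 4 or without female control 4 edgeR called 0 members, and without female CKD 4 it called mt-Tc and mt-Ts2. Shares of all genes called in these fits are not given here. The fold changes without male control 4 and without female control 4 were 2.26 and 2.27 for mt-Tn, 1.93 and 2.02 for mt-Tc, and 2.41 and 3.84 for mt-Ts2.

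**Figure D5:**
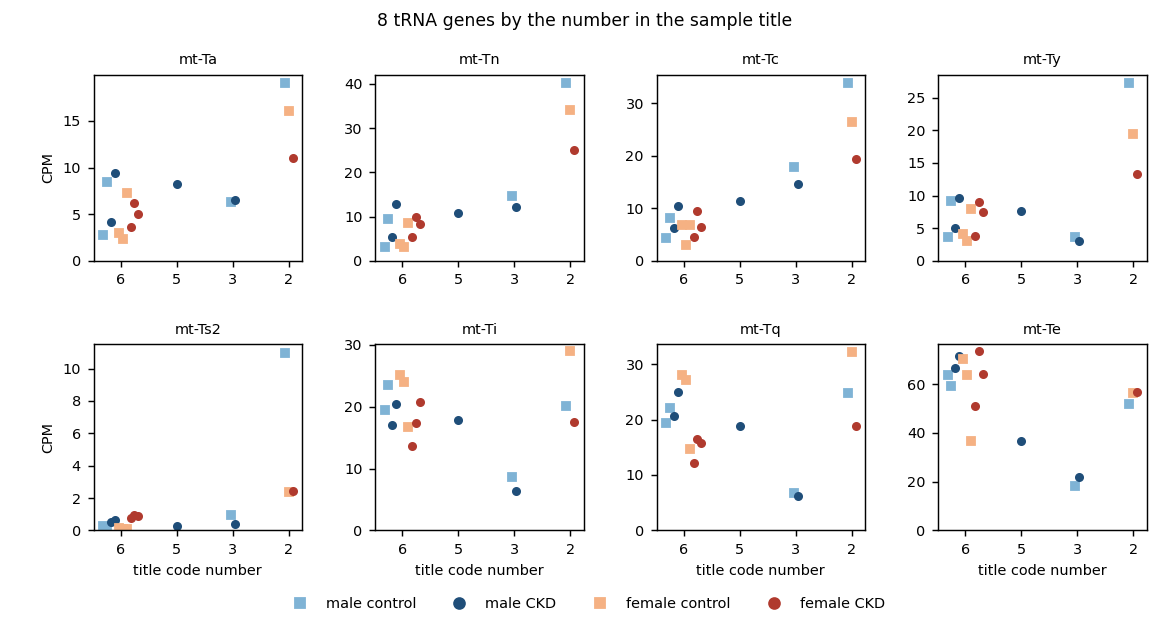
CPM (without TMM scaling) of 8 tRNA genes by the number in the sample title (6, 5, 3 and 2), 1 point per library, squares for control and circles for CKD. mt-Ta, mt-Tn, mt-Tc, mt-Ty and mt-Ts2 are highest in the 3 libraries with number 2, and mt-Ti, mt-Tq and mt-Te are lowest in the 2 libraries with number 3.

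The protein genes to either side of the cluster were at 0.08 (mt-Nd2, 95% interval -0.15 to 0.31) and 0.16 (mt-Co1, -0.04 to 0.35) for code 2 against code 6. The cluster genes together took 0.0976% ± 0.0282 (n = 3) of mitochondrial counts with code 2 and 0.0270% ± 0.0110 (n = 10) with code 6. With code 2, cardiomyocyte markers summed to 43682 to 47182 CPM, against 35329 to 46655 with code 6, and fibroblast markers to 1872 to 2016 CPM, against 1214 to 1956. The part of cell makeup in the tRNA values was not tested.

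In the libraries with code 3 (male control 3 and male CKD 4), 6 of 32 members were called against code 6 in edgeR, but 22.3% of all genes were, so the count of members is near the background. mt-Te had 18.3 and 21.7 CPM there and 36.8 to 73.6 with code 6, which gave -1.61 as log2 fold change (SE 0.24, adjusted p = 0.000622, edgeR). mt-Tq had 6.69 and 6.22 CPM against 12.1 to 28.0, a fold change of -1.63. mt-Ti had 8.62 and 6.39 CPM against 13.7 to 25.1, a fold change of -1.31. The ranges of these 3 did not overlap those with code 6, and how many of all genes separated in this way was not counted. mt-Tm was at -0.82 and mt-Nd5 at -0.53, with 5833 and 6443 CPM against 8299 to 11644. mt-Tc was higher, at 1.18. Without male CKD 4, edgeR still called mt-Te, mt-Tq, mt-Ti, mt-Tm and mt-Nd5 and no longer mt-Tc; without male control 3, mt-Te, mt-Tq and mt-Ti of the 6 remained. The makeup of the mitochondrial counts differed too. Complex I genes held 36.1% ± 0.358 (n = 2) with code 3 and 41.6% ± 0.955 (n = 10) with code 6, complex IV genes 38.9% ± 0.388 and 34.9% ± 0.673, and mt-Cytb 11.3% ± 0.0240 and 9.90% ± 0.166. The counts of mt-Rnr2 were 1.77 and 1.75 times those of mt-Rnr1 in male control 3 and male CKD 4, below the median of 2.33 over all libraries. Fibroblast markers, given above, lay at opposite ends in these 2 libraries. Cardiomyocyte markers summed to 44112 CPM in male control 3 and 49124 CPM in male CKD 4, against 35329 to 46655 with code 6. The part of cell makeup in the values of these 2 libraries was not tested.

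Nuclear genes that act on mitochondrial DNA and RNA were described beside the members, and none passed the test for CKD in edgeR. Of 17 genes of transcription and replication of mitochondrial DNA, 7 were positive (median -0.01). Polg2, the accessory subunit of the mitochondrial DNA polymerase, was at 0.35 and Tfb2m, a transcription initiation factor, at 0.23. Of 10 nuclear regulators of mitochondrial genes 4 were positive (median -0.04), with Gabpa at 0.21 and Ppargc1a, the coactivator PGC-1alpha, at 0.24. Of 20 genes of RNA processing and decay 11 were positive (median 0.02). Hsd17b10, a subunit of the enzyme that cuts tRNAs at their 5′ end, was at 0.28 and Fastkd3, an RNA-binding protein, at 0.27. Of 21 genes that modify mitochondrial rRNA and tRNA 13 were positive (median 0.06), with the rRNA methyltransferases Mettl15 at 0.31 and Mrm1 at -0.40. Of 29 genes of mitochondrial translation 12 were positive (median -0.04), with Yars2, the tyrosyl-tRNA synthetase, at -0.29 and Oxa1l, the membrane insertase, at 0.27.

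The nuclear subunits of the complexes that hold the members were mostly on the positive side in CKD, again with no call. All 7 nuclear core genes of complex I were positive (median 0.13; Ndufv1 0.30, Ndufs1 0.12). So were 7 of 9 genes of complex III (median 0.15; Uqcr10 0.27, Uqcrc2 0.15), 9 of 10 of complex IV (median 0.19; Cox6a2 0.29, Cox7b 0.19) and 12 of 12 of ATP synthase (median 0.18; Atp5o 0.35, Atp5c1 0.27). The medians of the mitochondrially encoded partners were 0.08 for complex I, 0.06 for complex IV and 0.07 for complex V, beside 0.06 for mt-Cytb. Cardiomyocyte markers were positive in 8 of 10 genes (median 0.12), and fibroblast markers in 0 of 8 (median -0.43), with summed fibroblast levels of 1790 to 2314 CPM in control and 418 to 2216 CPM in CKD. Markers of endothelium (0 of 7 positive, median -0.40), pericytes and smooth muscle (0 of 6, -0.15) and erythroid cells (0 of 5, -0.36) were also all on the negative side. Macrophage markers were positive in 1 of 6 (median -0.11), atrial markers in 2 of 5 (-0.29), brown fat markers in 4 of 4 (0.12), and of those tested, lymphocyte markers in 0 of 3 (-0.76) and skeletal muscle markers in 2 of 2 (0.59). The part of cell makeup in the values of the nuclear and mitochondrial subunits was not tested.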

How the data were processed

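Total RNA of 16 ventricle libraries was sequenced as paired reads of 50 bases. The authors deposited raw counts per gene; the submitters' processing notes name STAR 2.6.1d, featureCounts (Subread 1.6.3) and DESeq2 1.30.1, with mm10. The sources used here do not state the annotation release or the strand and multiple-mapping settings. Of 33399 identifiers, 33367 matched GENCODE M21. edgeR 4.0.16 (R 4.3.3) was run on all genes after filterByExpr (minimum count 10, minimum total 15; 16400 genes, at least 99.8% of counts kept), with TMM scaling; the common coefficient of variation was 0.225. The fit had sex and CKD as terms, and a model with 4 groups gave effects by sex and their difference. Tests are two-sided, with Benjamini-Hochberg adjustment over all genes and a threshold of 0.05. The fit was tested on simulated data. Alternatives were DESeq2 1.42.0, limma-voom (limma 3.58.1), other scalings and filters, the title code number, GC correction (lowess, span 0.3) and libraries left out; adding nuclear copies and the title code comparisons came after seeing the data. All members are accounted for: protein, rRNA and tested tRNA genes are named with values, and up to 2 genes with the lowest p per nuclear list. Members and lists were chosen with earlier results of these data known.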

Additional observations from a re-analysis of the deposited data

Results flagged for a closer look

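Within each group of 4 libraries, a value was singled out where its gap to the nearest of the others, divided by the group's range, was above Dixon's 95% critical value. Of 144 groups of values tested, 7 met this, and chance gives about 1 in 20 (5%). All 7 lay in libraries with title code number 2 or 3. Values are CPM without TMM scaling. mt-Tc was high in female control 4, at 26.4 CPM against 3.05 to 6.85 CPM in the other female controls. mt-Th was high in male control 4, at 2.50 CPM against 0.176 to 0.371 CPM. mt-Ts2 was high in 3 groups: 10.9 CPM in male control 4 (others 0.148 to 0.968), 2.35 CPM in female control 4 (others 0.0856 to 0.171) and 2.42 CPM in female CKD 4 (others 0.766 to 0.934). mt-Atp8 was low in male control 3, at 528 CPM against 666 to 686 CPM, and mt-Nd4l was low in the same library, at 1078 CPM against 1367 to 1398 CPM.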

How the results depend on the processing

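The count of 0 members called held for CKD, for CKD in each sex, for the difference between the sexes and for sex under every alternative run. No paired analysis was possible because the labels give no replicate numbers. None of the fold changes that changed sign below was called. The following are log2 fold changes of CKD over control whose sign turned; the cause was not tested. Scaling to the total of mitochondrial counts gave mt-Rnr2 -0.026, mt-Nd2 -0.031, mt-Ts1 -0.026, mt-Co2 -0.010, mt-Atp6 -0.017, mt-Co3 -0.031, mt-Nd3 -0.048, mt-Nd4 -0.023 and mt-Cytb -0.014. Removing the GC trend gave mt-Rnr2 -0.025, mt-Nd2 -0.021, mt-Ts1 -0.011, mt-Atp6 -0.0024, mt-Co3 -0.0089, mt-Nd3 -0.042 and mt-Nd4 -0.011. Scaling from nuclear genes gave mt-Nd3 -0.0055. limma-voom gave mt-Nd2 -0.0056, mt-Nd3 -0.0082, mt-Nd4 -0.00058, mt-Ta 0.10, mt-Tn 0.15, mt-Ty 0.0037, mt-Th 0.035 and mt-Ts2 0.47. The title code number as a factor gave mt-Ta 0.17, mt-Tn 0.34, mt-Tc 0.18, mt-Ty 0.16, mt-Th 0.26 and mt-Ts2 0.66. Title code number 6 only gave mt-Tl1 -0.081, mt-Ta 0.30, mt-Tn 0.62, mt-Tc 0.40, mt-Ty 0.38 and mt-Ts2 2.16, and mt-Ts2 1.36 in males. Without male CKD 4 and female control 2 together, mt-Ts1 was at -0.0074, mt-Co2 -0.0042, mt-Atp6 -0.00032, mt-Co3 -0.032, mt-Nd3 -0.010 and mt-Cytb -0.0047.

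Leaving out 1 library at a time, the values that crossed 0 ranged from -0.015 to 0.072 for mt-Co3, -0.025 to 0.071 for mt-Nd2, -0.026 to 0.047 for mt-Nd3, -0.017 to 0.067 for mt-Nd4 and -0.028 to 0.074 for mt-Rnr2. They ranged from -0.39 to 0.12 for mt-Ta, -0.55 to 0.069 for mt-Tc, -0.0067 to 0.22 for mt-Te, -0.82 to 0.16 for mt-Th, -0.63 to 0.15 for mt-Tn, -0.48 to 0.040 for mt-Tr, -0.023 to 0.10 for mt-Ts1, -1.34 to 0.65 for mt-Ts2 and -0.55 to 0.13 for mt-Ty. In males, mt-Ts2 ranged from -3.13 to 0.093, with the positive value without male control 4. Adding the nuclear copies, which may hold the same reads as the mitochondrial genes, gave a mitochondrial share of 13.44% in control and 13.41% in CKD. Leaving out the rRNA genes gave mt-Co1 21.43% of the mitochondrial counts. Title code number 2 against 6 gave 6 members with DESeq2 and 0 to 2 with 1 library left out, counts given without the share of all genes. Of depth, tRNA genes below about 1 CPM rest on a few counts per library, which limits the differences that could be seen in them.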
